A study of Mastomys natalensis with 4 samples.

Results

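Chemokines, cytokines and their receptors were followed on Affymetrix mouse U74 arrays in the stomach lining of Mastomys natalensis. This African rodent readily forms tumours from its enterochromaffin-like (ECL) cells, the gastric endocrine cells that release histamine. Members were chosen by the spelling of their gene symbol alone (Ccl, Cxcl, Cx3c, Ccr, Cxcr, Il, Tnf, Ifn, Csf, Lif, Ltb and Lta). They numbered 164 probe sets of 136 genes among the 12488 probe sets of the array table. The groups were 2 samples after 16 weeks of loxtidine (loxitidine in the labels), a stage labelled ECL cell neoplasia, and 2 samples after 8 weeks of the same drug, labelled ECL cell hyperplasia. Loxtidine blocks the histamine H2 receptor and so suppresses acid secretion. All 4 samples were total RNA of treated mucosa, and untreated mucosa was not analysed here. Strain, sex and age were not given in the sources used here, nor was it stated that samples of 1 group are different animals, so the p-values rest on a spread that may be technical. Treatment time and lesion stage changed together and cannot be told apart. The labels name a lot for each sample, a different one for each.

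Chemokines are small secreted proteins that draw leukocytes into a tissue. They are named for the spacing of their leading cysteines (CC, CXC or CX3C) and act on receptors coupled to G proteins. Most interleukins, the interferons and the colony stimulating factors act through receptors linked to JAK kinases and STAT transcription factors, whereas tumour necrosis factor (TNF) and its relatives act through trimeric receptors that lead to NF-kappaB or to cell death. In the stomach these proteins accompany gastritis, and interleukin-1 beta is known as an inhibitor of acid secretion. Differences are given on the log2 scale as 16 weeks minus 8 weeks with their SE (standard error) from limma, a linear model that pools the spread over probe sets, with n = 2 samples per group.

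Array facts bear on every value. The probes were built on mouse sequence, and mismatches with Mastomys RNA lower a probe set's signal by an unknown amount. Each difference was therefore taken within a single probe set, between samples. Summed intensities, brightness groups and shares above the floor combine different probe sets and carry this unknown loss. Array medians were 19.2 and 18.9 at 16 weeks and 15.4 and 17.3 at 8 weeks. A floor of 12.15 was set on intensity, and a probe set was tested when 2 or more of the 4 arrays read it above that floor. Of the labelled tissue's markers, the parietal cell genes Atp4a, Atp4b, Cblif and Kcnq1 were above the floor on all arrays, while histidine decarboxylase (Hdc), the histamine-making enzyme that defines ECL cells, lay under it on all 4. In bulk mucosa fewer cells of a type and less RNA per cell cannot be told apart.

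Much of this family could not be measured. Of the 164 member probe sets 83 were tested (50.6%), against 63.5% of all 12422 probe sets other than controls. A further 61 lay under the floor on all 4 arrays and 20 exceeded it on 1 array, and these 81 are unmeasured, which does not show that their transcripts were absent. Receptors were read more often than ligands: 46 of 77 receptor probe sets were tested and 30 of 75 ligand probe sets. The share of members above the floor was 49.4% and 51.2% on the 16-week arrays and 42.7% and 45.7% on the 8-week arrays, beside 62.4% and 62.3% against 55.3% and 57.9% for all probe sets. Of the 20 members above the floor on 1 array, 16 were above it at 16 weeks (9 in sample 1 and 7 in sample 2) and 4 at 8 weeks (2 in each sample). The same split was not made for the 1216 of all probe sets above it on 1 array.

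**Figure D1:**
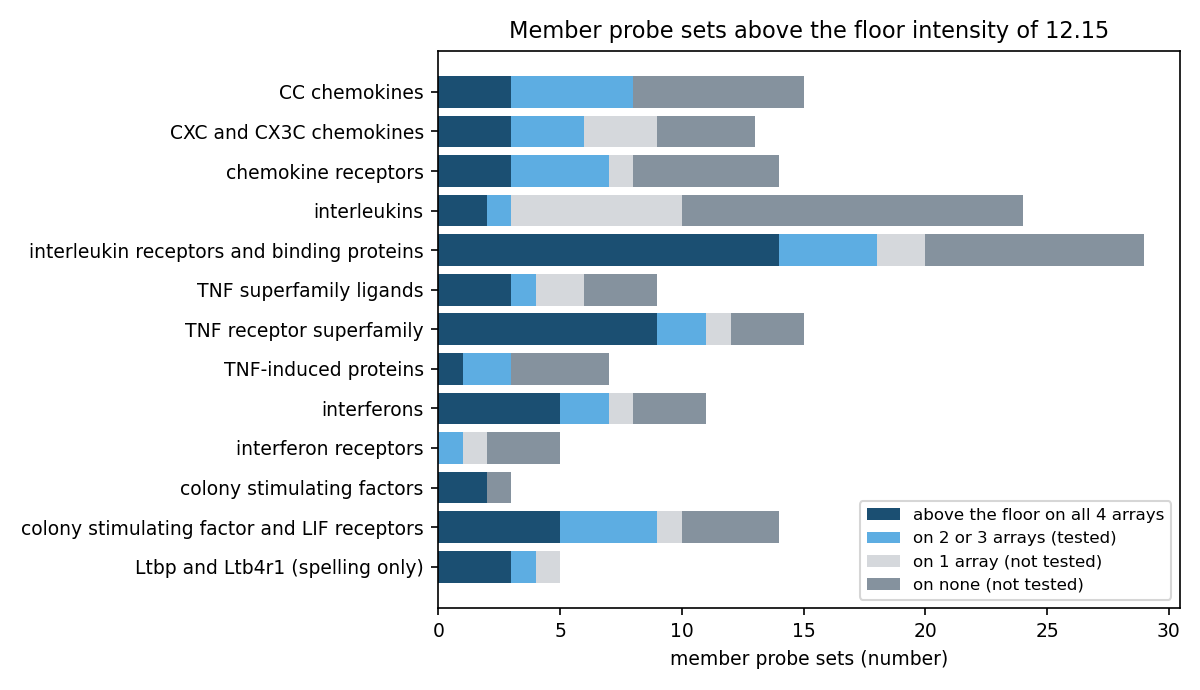
Number of member probe sets by role (horizontal axis), split by how many of the 4 arrays read them above the floor of 12.15. The interleukins had 3 tested of 24, whereas 18 of 29 probe sets of interleukin receptors and binding proteins were tested.

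The tested members lay on balance higher at 16 weeks, with none past the threshold. Of the 83, 56 were higher and 27 lower, with a median difference of 0.28. Over all 7883 tested probe sets 4438 were higher and 3445 lower, with a median of 0.09. None of the members passed limma's test after Benjamini-Hochberg adjustment over all probe sets, and neither did any other probe set (0%), so no single change given here was established. At an unadjusted limma p under 0.05 there were 11 members higher (13.3% of the tested members, against 8.08% of all tested probe sets) and 7 lower (8.43%, against 5.87%). Both 16-week samples exceeded both 8-week samples in 32 members (38.6%, against 28.7% of all probe sets) and lay below both in 9 (10.8%, against 20.6%). Of the 7 lower, 2 (Ifngr2 and 101789_i_at of Ifna4) had both 16-week readings under the floor. They could only come out lower, and the floor left their 16-week group no spread. Ccl9 and Il1r1, among the 56 higher, had both 8-week readings under the floor and could only come out higher. These shares are a description of the family and no test was made of them.

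The size of the shift depended on single samples. Without 8-week sample 1 the members' median was 0.08 and the count at an unadjusted p under 0.05 was 6 in place of 18, while the median of all probe sets was -0.01. Without 16-week sample 2 the members' median was 0.16, beside 0.10 for all probe sets. Array scale moved both medians together. With the arrays on a common median they were 0.09 for members and -0.11 for all probe sets, with 6 members higher and 8 lower at an unadjusted p under 0.05. With the arrays on the hybridisation controls they were 0.72 and 0.54, with 35 members higher and 1 lower. The members' median stood 0.17 to 0.20 above that of all probe sets under each of these scalings, quantile normalization and the deposited scale.

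**Figure D2:**
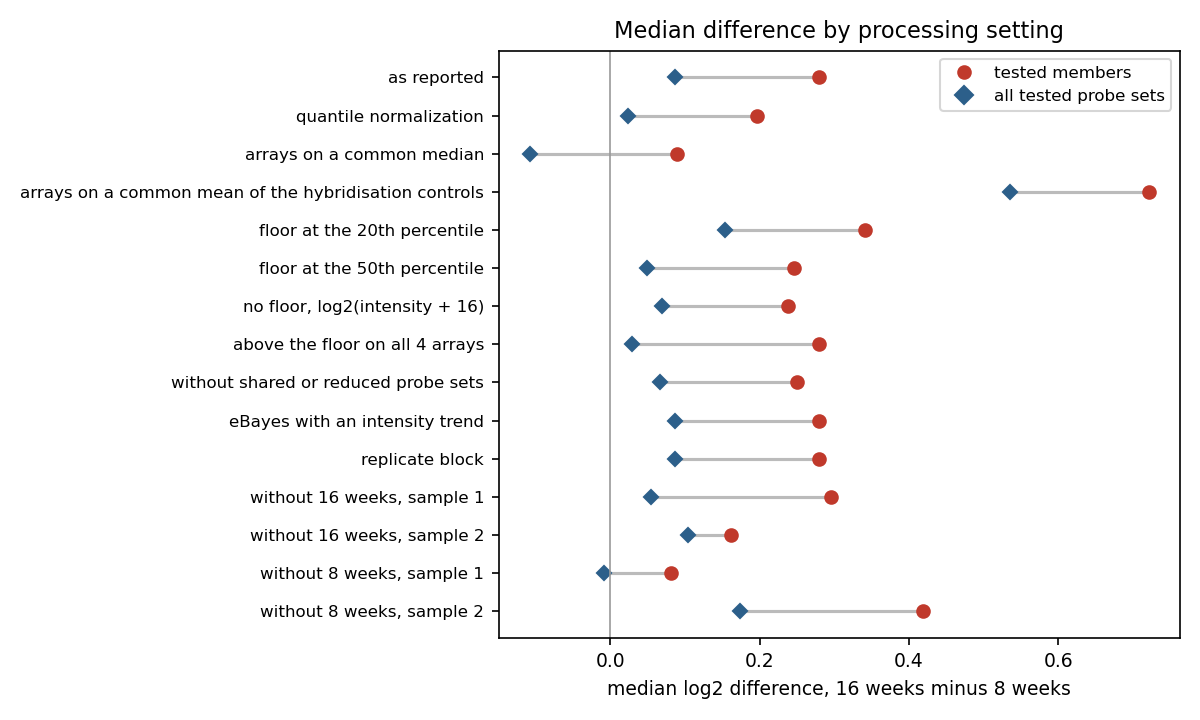
Median log2 difference, 16 weeks minus 8 weeks (horizontal axis), of the tested members (red circles) and of all tested probe sets (blue diamonds) under each processing setting but the one without a filter on dim probe sets, where both medians are 0. The members lay to the right in every setting drawn, with the smallest gap, 0.06, without 16-week sample 2.

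Brightness moved with the direction. All tested probe sets were ranked by mean intensity and cut into 4 equal groups. In the dimmest group, with mean intensities of 12.2 to 19.1, the median difference was 0.19 and 67.2% were higher at 16 weeks. In the brightest group, above 74.1, the median was -0.13 and 39.6% were higher. The tested members were crowded at the dim end, with 33, 22, 18 and 10 probe sets from the dimmest to the brightest group. Of them 24, 12, 12 and 8 were higher at 16 weeks, with medians of 0.39, 0.10, 0.30 and 0.20. The part of brightness in the members' shift was not tested.

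**Figure D3:**
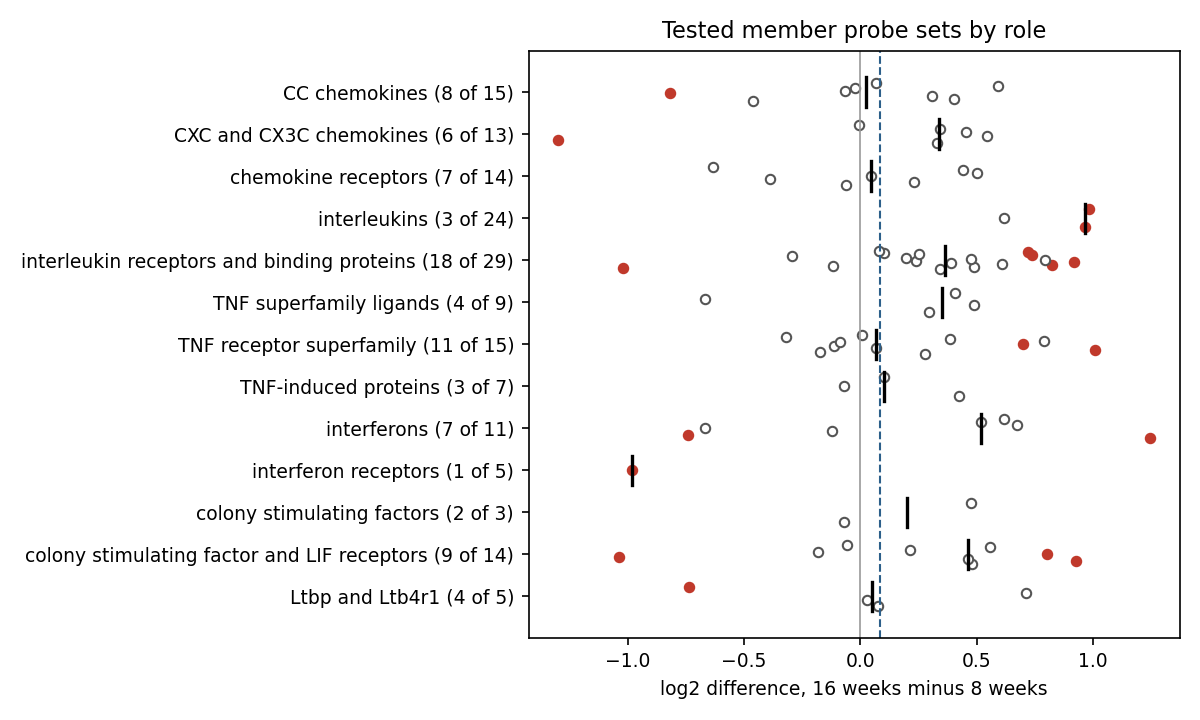
Log2 difference, 16 weeks minus 8 weeks (horizontal axis), of each tested member probe set by role, with the number tested of all in brackets. Filled red points have an unadjusted limma p under 0.05, black bars are role medians and the dashed line is the median of all tested probe sets, 0.09. Interleukin receptors lie mostly to the right, with 15 of 18 higher.

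Among CC chemokines 8 of 15 probe sets were tested, 4 higher and 4 lower, with a median of 0.02. Eotaxin (Ccl11, 92742_at), which attracts eosinophils, had the smallest p. It read 12.8 and 14.7 at 16 weeks, against 26.2 and 22.3 after 8 weeks. The groups stood apart, and the 16-week readings were close to the floor (-0.82 ± 0.25; adjusted p = 0.326). Ccl22, a ligand of Ccr4 on helper and regulatory T cells, read 97.3 and 96.3 against 54.7 and 98.1, so that 8-week sample 1 alone was low (0.40 ± 0.35). Ccl25, which guides lymphocytes to the gut, read 5 and 14.7 against 27.9 and 6.4, with 1 sample of each group under the floor. One probe set of Ccl1, an attractant of T cells and monocytes, read 23 and 21.8 against 13 and 17 (0.59 ± 0.26), and the other 14.3 and 4.8 against 13.6 and 13.2 (-0.02 ± 0.24). The remaining tested members, Ccl6, Ccl7 and Ccl9, differed by -0.07 to 0.31. The monocyte attractant Ccl2 read 1.8 and 8.1 at 16 weeks against 5.9 and 2.2 after 8 weeks, and with Ccl3, Ccl4, Ccl5, Ccl8, Ccl12 and Ccl17 it lay under the floor on all arrays.

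CXC and CX3C chemokines gave the tested member with the most negative difference of all, on a probe set whose companion read the other way. Stromal factor Cxcl12, which retains leukocytes and stem cells through its receptor Cxcr4, read 11.7 and 19.6 at 16 weeks on probe set 160511_at, against 38.6 and 37.3 after 8 weeks. Both 16-week samples lay well below both 8-week samples there (-1.30 ± 0.32; adjusted p = 0.309). Probe set 100112_at of the same gene read 32.3 and 50.6 against 29.4 and 35.2, with overlapping groups (0.33 ± 0.32), and its remaining probe set lay under the floor on all arrays. Fractalkine (Cx3cl1), a chemokine that also exists tethered to membranes, read 51.4 and 51.2 against 34.9 and 46.9 (0.34 ± 0.27). Its second probe set read 13.5 and 103.3 against 14.6 and 44.8, a spread within groups too wide for a comparison (0.55 ± 1.08). The neutrophil attractant Cxcl1 read 16 and 30.6 against 6.8 and 21.5 (0.45 ± 0.45), and its relative Cxcl5 read 13.6 and 5.6 against 13.7 and 2.8. Cxcl9, Cxcl13 and Cxcl14 lay under the floor everywhere. The interferon-induced Cxcl10 exceeded it only in 16-week sample 2, at 14, and the neutrophil attractant Cxcl2 only there as well, at 13.2.

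Chemokine receptors held both directions, with 4 higher and 3 lower of 7 tested among 14 probe sets, and none reached an unadjusted p of 0.05. Cxcr3, the receptor for interferon-induced chemokines on T cells, read 23.5 and 18.5 at 16 weeks against 26.3 and 28.4 after 8 weeks. Its groups did not overlap (-0.39 ± 0.26; adjusted p = 0.511). Ccr6, found on B cells and helper T cells, read 10 and 12.2 against 10.3 and 29.3, so that 8-week sample 2 set the difference (-0.63 ± 0.46). Ccr3, the eotaxin receptor of eosinophils, read 21.5 and 22.3 against 10.5 and 21.4 (0.44 ± 0.34). The neutrophil receptor Cxcr2 read 24.3 and 15.6 against 13.5 and 20.4 (0.23 ± 0.36), and the fractalkine receptor Cx3cr1 of monocytes 86.3 and 100.3 against 79.4 and 102.5 (0.04 ± 0.27). The Cxcl12 receptor Cxcr4 read 9.7 and 11.5 against 6 and 11.6 and lay under the floor on every array, as did Ccr1, Ccr2, Ccr4, Ccr7 and Ccr8. Ccr9, the receptor for Ccl25, read 6.8 and 24.5 against 12.2 and 4.7, with 16-week sample 2 alone clearly above the floor (0.50 ± 0.39), Ccr1l1 gave -0.06 ± 0.59, and Cxcr5 was above the floor on 1 array.

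Of the interleukins themselves only 3 of 24 probe sets were tested, and all of these read higher at 16 weeks. Il16, a chemoattractant for cells bearing CD4, read 27.9 and 28.7 at 16 weeks, against 14.8 and 14.2 after 8 weeks. Samples of a group lay within 1 intensity unit of each other (0.97 ± 0.23; adjusted p = 0.309), and the unadjusted p stayed under 0.05 under each of the 15 processing alternatives. Il5, the eosinophil growth factor made by T helper cells, read 25.9 and 30.9 against 12.1 and 16.9, with 1 of the 8-week readings just under the floor (0.98 ± 0.29; adjusted p = 0.325). Il9, a growth factor of mast cells and T cells, read 68.9 and 73.1 against 42.3 and 50.7, also without overlap (0.62 ± 0.25; adjusted p = 0.363).

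The inflammatory interleukins gave no measurement. Il1b, the acid inhibitor, read 5.2 and 3.2 at 16 weeks against 2.5 and 7.2 after 8 weeks, and Il6, an inducer of the acute phase, 10.1 and 5.7 against 1.6 and 1.4. Both lay under the floor on all arrays, as did Il2, Il7, Il10, Il11, Il12a, Il12b, Il13, Il15 and Il18. Il1a exceeded the floor only in 8-week sample 1, at 12.3, and Il17a only in 8-week sample 2, at 13.5. The interleukin-1 receptor antagonist Il1rn read 22.4 and 9.2 against 5.3 and 7.4, above the floor in 16-week sample 1 alone. That sample was also the one above the floor for Il17d and for Il1f5, an antagonist of the related IL-36 receptor, and for 1 of the 4 probe sets of Il4. The haematopoietic growth factor Il3 read 33.7 in 16-week sample 2 and between 3.9 and 11 in the others.

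Interleukin receptors and binding proteins were the largest role and read mostly higher at 16 weeks: 15 of 18 tested probe sets were higher (83.3%, against 56.3% of all tested probe sets) and 3 lower, with a median of 0.37. At an unadjusted p under 0.05 there were 4 higher (22.2%, against 8.08% of all) and 1 lower (5.56%, against 5.87%). Il13ra1, a receptor chain for interleukins 13 and 4, read 26.6 and 20.4 at 16 weeks against 7.1 and 14.3 after 8 weeks (0.82 ± 0.27; adjusted p = 0.333). Il7r, the receptor that sustains T cells and lymphocyte precursors, read 24.7 and 21 against 13.2 and 14.1 (0.74 ± 0.24; adjusted p = 0.333). In both genes the groups stood clear of each other, with 8-week readings near or under the floor.

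Il4ra, which pairs with Il13ra1 or the common gamma chain, read in opposite directions on its pair of probe sets. Probe set 161192_at read 36.3 and 41.7 at 16 weeks against 18.1 and 23.5 after 8 weeks (0.92 ± 0.27; adjusted p = 0.325), and 102021_at read 81.5 and 54.4 against 160.1 and 114 (-1.02 ± 0.33; adjusted p = 0.333). The groups did not overlap on either, so no direction can be given for the gene. Il17ra, the receptor for interleukin 17, read 21.8 and 25.7 against 14.8 and 14 on 99991_at (0.72 ± 0.24; adjusted p = 0.338). Its other probe set, 99992_at, read 45.7 and 52.8 against 46.5 and 46.4 (0.08 ± 0.24), which turned negative after quantile normalization and on a common median.

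None of the receptors of the interleukin-6 and interleukin-1 systems reached an unadjusted p of 0.05. Il6ra, the ligand-binding chain for interleukin 6, read 44.7 and 64.1 at 16 weeks against 31 and 39.7 after 8 weeks, without overlap (0.61 ± 0.30; adjusted p = 0.416). The signalling chain Il6st (gp130), shared with the LIF receptor, read 26.1 and 13.6 against 15.5 and 34.4, with overlap (-0.29 ± 0.52). The signalling receptor Il1r1 read 16.6 and 17.2 against 11.7 and 8.5, both 8-week readings under the floor. By the estimate Il1r1 was at least 1.39-fold higher (0.48 ± 0.23, adjusted p = 0.406). The decoy receptor Il1r2 gave -0.12 ± 0.33 and 0.24 ± 0.40 on its tested probe sets. Il27ra, a receptor that restrains T cell responses, read 321.7 and 299.5 against 190.2 and 257.1, again with the groups apart (0.49 ± 0.27; adjusted p = 0.451). The other tested members of this role (Il2rb, Il3ra, Il10rb, Il12rb1, Il12rb2 and Il15ra) were higher by 0.102 to 0.795.

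Among TNF superfamily ligands 4 of 9 probe sets were tested and none reached an unadjusted p of 0.05. Tnf itself read 4.9 and 5.2 at 16 weeks against 3.3 and 4.6 after 8 weeks, under the floor throughout. Lymphotoxin alpha (Lta), a T and B cell product, read 291.7 and 319.5 against 216.3 and 286.7 on 100327_at (0.29 ± 0.27). The second Lta probe set, 102630_s_at, read 13.9 and 12 against 7.1 and 6, above the floor on 1 array only. Its partner lymphotoxin beta (Ltb), needed for lymphoid tissue, read 15.4 and 15.3 against 40.5 and 14.7, so that 8-week sample 1 stood alone (-0.67 ± 0.51). Tnfsf8, the CD30 ligand, read 21.7 and 31.1 against 16.3 and 21 (0.49 ± 0.30). The death ligand Tnfsf10 (TRAIL) read 23 and 19.7 against 7.2 and 21.2 (0.41 ± 0.35). Tnfsf4, Tnfsf9 and Tnfsf11 were not tested.

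TNF receptors were measured best, with 11 of 15 probe sets tested, 7 higher and 4 lower, and a median of 0.07. Osteoprotegerin (Tnfrsf11b), a secreted decoy for the bone-resorption ligand Tnfsf11, read 21.4 and 32.4 at 16 weeks against 14.1 and 11.3 after 8 weeks (1.01 ± 0.30; adjusted p = 0.326). The main TNF receptor Tnfrsf1a read 73.7 and 82.9 against 45.4 and 51 on 161194_r_at (0.70 ± 0.24; adjusted p = 0.342). Both sets of groups stood apart, although the second Tnfrsf1a probe set was above the floor on 1 array only. Tnfrsf1b, the TNF receptor of leukocytes, read 43.6 and 20.7 against 16.5 and 18.3, with 16-week sample 1 high (0.79 ± 0.41). The lymphotoxin receptor Ltbr gave -0.32 ± 0.31 and the Tnfsf11 receptor Tnfrsf11a (RANK) 0.28 ± 0.23. The others (Tnfrsf4, Tnfrsf8, Tnfrsf9, Tnfrsf17, Tnfrsf18 and Tnfrsf21) differed by -0.175 to 0.383. Of the TNF-induced proteins 3 of 7 probe sets were tested. Tnfaip8, Tnfaip1 and Tnfaip2 gave 0.42 ± 0.39, 0.10 ± 0.25 and -0.07 ± 0.27, and the NF-kappaB inhibitor Tnfaip3 (A20) lay under the floor everywhere, as did Tnfaip6 and Tnfaip8l1.

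Interferon probe sets differed in direction within 1 gene family. Type I interferon alpha genes are near-identical copies. Most of their probe sets, and all the tested ones but 101789_i_at of Ifna4, carry the suffix that marks sequence shared within a gene family, so a reading cannot be given to 1 copy. The probe set named Ifnab (101317_f_at) read 139.9 and 151.6 at 16 weeks, against 70.7 and 53.4 after 8 weeks. It had the smallest p of all members (1.25 ± 0.26; adjusted p = 0.301), and both 16-week samples lay far above both 8-week samples. Ifna2 read 61.9 and 82.2 against 51.6 and 41.9 (0.62 ± 0.28), and Ifna9 and Ifna15 were higher by 0.67 and 0.52. Ifna4 lay the other way on 101789_i_at, at 8.8 and 10.9 against 21.3 and 19.3, with both 16-week readings under the floor. Its estimate there was at least 1.67-fold lower (-0.74 ± 0.23, adjusted p = 0.33), while 101790_f_at gave -0.12 ± 0.41. Ifna5 read 44 and 28 against 54.6 and 57 (-0.67 ± 0.31). Interferon gamma (Ifng), the type II interferon of T and NK cells, read 5.9 and 5.7 against 1.7 and 2.7 and was unmeasured. Ifnb1, the interferon beta gene, exceeded the floor only in 16-week sample 2, at 25.7, and Ifna7 and Ifna11 on no array.

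Of the interferon receptors, 1 of 5 probe sets was tested. Ifngr2, the signalling chain for interferon gamma, read 5.2 and 6.4 at 16 weeks against 28.4 and 20.3 after 8 weeks, with both 16-week readings under the floor. By the estimate it was at least 1.98-fold lower (-0.98 ± 0.28, adjusted p = 0.321). The ligand-binding chain Ifngr1 and the type I receptor chain Ifnar1 lay under the floor on all arrays, and Ifnar2 exceeded it on 1 array at most, so no partner could be set beside Ifngr2.

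Among colony stimulating factors and their receptors the macrophage receptor had the smallest p, on a dim probe set. Csf1r, which macrophages need to survive, read 25.8 and 23 at 16 weeks against 12.1 and 13.5 after 8 weeks on 104354_at (0.93 ± 0.24; adjusted p = 0.309). The 8-week readings of 104354_at lay close to the floor, on either side of it. Probe set 161832_r_at was brighter and read 54.8 and 51 against 54.4 and 66.2, with overlap. It gave -0.18 ± 0.25, and 0.34 with the arrays on the hybridisation controls. The pair differed in sign on the deposited scale, so no direction can be given for Csf1r. The ligand Csf1 read 58.7 and 63.9 against 75.4 and 54.9 (-0.07 ± 0.27). The granulocyte factor Csf3 read 63.5 and 81 against 52.4 and 50.8, without overlap (0.48 ± 0.26; adjusted p = 0.443), and its receptor Csf3r 179.9 and 131.3 against 81.5 and 133.5 on its measured probe set (0.56 ± 0.35). Csf2rb2, a receptor chain for interleukin 3, read 18.3 and 27.9 against 16.4 and 16 (0.48 ± 0.30), Csf2rb gave 0.21 ± 0.35, and Csf2 and Csf2ra lay under the floor everywhere. Ccl20 and Lif were not analysed here.

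Lifr, the receptor for leukemia inhibitory factor, was the gene with the most tested probe sets. Probe set 104658_at read 14.8 and 18.8 at 16 weeks against 27.3 and 43 after 8 weeks (-1.04 ± 0.33; adjusted p = 0.329), whereas 104659_g_at read 21.7 and 26.6 against 15.6 and 9.1 (0.80 ± 0.27; adjusted p = 0.338). The groups were apart on both. The other tested sets, 104657_at and 97006_s_at, gave 0.46 ± 0.26 and -0.06 ± 0.33. No direction can be given for Lifr.

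Disagreement between probe sets limited some gene-level statements, and it could be seen only where a gene had more than 1 tested probe set. Of 9 member genes with more than 1 tested probe set, 6 (66.7%) held both signs, against 484 of 982 genes (49.3%) over the whole array. Il4ra and Lifr each had probe sets past an unadjusted p of 0.05 in both directions, as did 15 of the 33 genes of the array with more than 1 probe set past it. In Cxcl12, Csf1r, Il17ra and Ifna4 only 1 of the tested probe sets reached that p, and in Cxcl12 and Csf1r the other had the opposite sign.

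**Figure D4:**
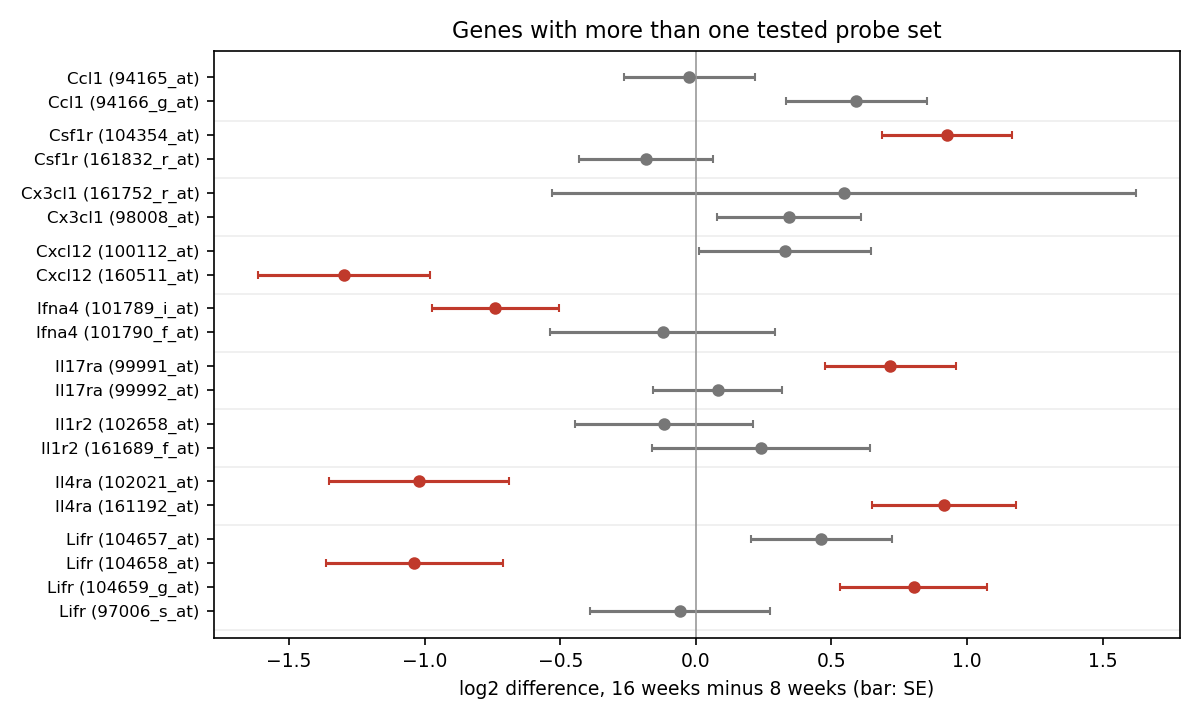
Log2 difference, 16 weeks minus 8 weeks (horizontal axis, bars are SE, n = 2 samples per group), of each tested probe set of the 9 member genes that had more than 1. Red marks an unadjusted limma p under 0.05. Il4ra and Lifr have red points on both sides of 0.

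The spelling rule also took in 5 probe sets of other families, beside the TNF-induced proteins, which are likewise neither cytokines nor their receptors. Ltbp4, which binds latent TGF-beta in the matrix, read 96.2 and 88.6 at 16 weeks against 180.6 and 130.9 after 8 weeks (-0.74 ± 0.27; adjusted p = 0.35). Ltbp2 and Ltbp3 of the same family gave 0.71 ± 0.34 and 0.03 ± 0.29. The leukotriene receptor Ltb4r1 gave 0.07 ± 0.26, which was negative after quantile normalization and on a common median. Without these 5, and with the TNF-induced proteins kept, the tested members numbered 79, of which 53 were higher and 26 lower, with a median of 0.29.

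**Figure D5:**
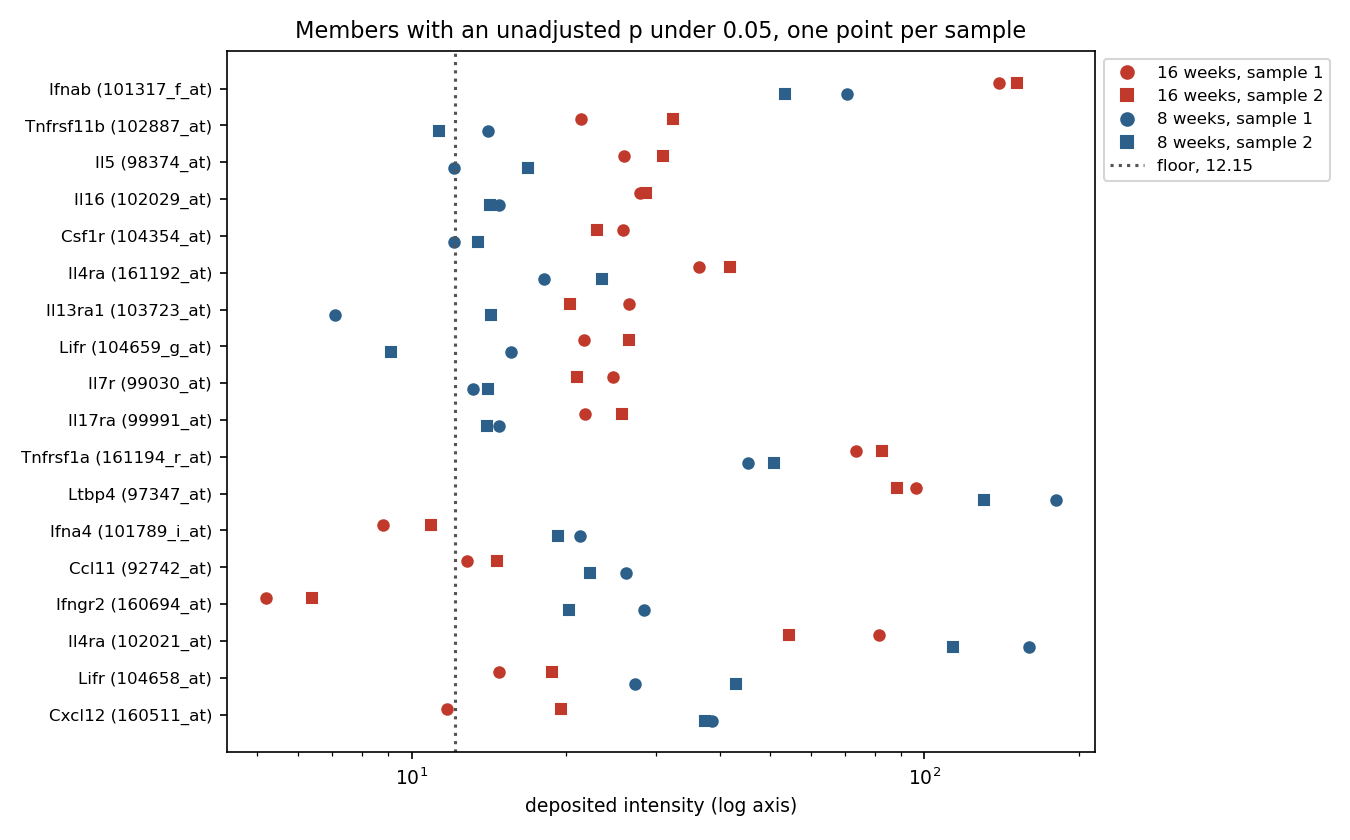
Deposited intensity (horizontal log axis) of the 18 member probe sets with an unadjusted limma p under 0.05, in order of difference. Red points are the 16-week samples and blue points the 8-week samples (circles sample 1, squares sample 2), and the dotted line is the floor of 12.15. In all 18 the groups stand apart, which the choice by p favours. The 16-week samples lie to the right in 11 and to the left in 7.

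Signalling and target genes of these ligands that are not members were read from a list of 60 genes. Of them 52 were annotated, with 69 probe sets, and 41 probe sets were tested, 27 higher and 14 lower, with a median of 0.17. At an unadjusted p under 0.05 there were 5 higher (12.2%, against 8.08% of all tested probe sets) and 2 lower (4.88%, against 5.87%). Socs1 and Socs2, negative regulators of JAK and STAT signalling, were among those higher. Socs1 read 67.5 and 57.6 at 16 weeks against 30.4 and 42.1 after 8 weeks (0.80 ± 0.28), and Socs2 42.8 and 44.1 against 26.7 and 29.5 (0.63 ± 0.23). Other such regulators did not reach that p, with 0.08 ± 0.41 and 0.18 ± 0.23 for Socs3, 0.29 ± 0.27 for Cish and -0.36 ± 0.43 for Pias1. Jak3, the kinase of the common gamma chain, read 84.2 and 72 against 40.4 and 48.6 (0.81 ± 0.25). The interferon-induced Mx2 read 21.4 and 34.2 against 14.6 and 10.6, the last of these below the floor (1.02 ± 0.32). The adhesion receptor Vcam1 was higher on its tested probe set (0.76 ± 0.29). A further Vcam1 probe set read 4 and 6.5 against 16.5 and 5.9, and only 8-week sample 1 exceeded the floor there. The remaining Vcam1 probe set was below the floor on every array. Those lower were the NF-kappaB inhibitor Nfkbib (-0.65 ± 0.24) and the acute-phase protein Saa3. Saa3 read 3.7 and 8.2 against 47.5 and 33.2, by the estimate at least 3.27-fold lower (-1.71 ± 0.28, adjusted p = 0.301). Mx1, Ifit1, Ifit2, Ifit3 and Icam1, targets of interferons and TNF, lay under the floor everywhere.

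Marker lists of several cell types leaned one way between the groups, none past the adjusted threshold, and their part in the members' differences was not tested. Over all tested probe sets 56.3% were higher at 16 weeks, and 67.2% in the dimmest group. All 7 tested T and NK cell probe sets were higher at 16 weeks, with summed intensities over the list of 339.6 and 621.8, against 241.4 and 268.7 at 8 weeks, while Cd5, Cd8a and Cd8b1 lay under the floor everywhere. Probe set 93663_r_at of Zap70, a T cell kinase, held much of these sums, at 102.4 and 353.8 against 78.6 and 117.2, and without it they were 237.2 and 268 against 162.8 and 151.5. All 8 tested B and plasma cell probe sets were higher, with sums of 319.4 and 333.5 against 184.2 and 234. Among them Cd22, Pax5 and a probe set of Ms4a1 had both 8-week readings under the floor. The same held for Cd3d among the T and NK cell probe sets. A probe set tested on its 16-week readings alone can only come out higher, which limits what these counts show. Macrophage markers were split, 5 higher and 4 lower of 9, with sums of 534.3 and 609.4 against 484.1 and 524.6 and Adgre1 under the floor. Without probe set 162276_i_at of C1qb the macrophage sums overlapped, at 397.8 and 465.3 against 416.8 and 424.3. Neutrophil markers had 4 of 5 higher, with sums of 215.1 and 236.3 against 182.7 and 186.2 and S100a9 under the floor. The tested Mpo probe set among those higher also had both 8-week readings under the floor. Mast cell markers had 3 higher and 2 lower, with sums of 244.6 and 228.8 against 237.5 and 247, and Fcer1a, Mcpt2 and Mcpt4 under the floor. Of the endocrine markers 3 of 4 tested probe sets were higher, with sums of 553.2 and 442.5 against 312.7 and 415.8. The granule protein chromogranin A (Chga) gave 1.08 ± 0.38 and 0.51 ± 0.35 on its probe sets, secretogranin II (Scg2) 0.89 ± 0.31 and chromogranin B (Chgb) -0.46 ± 0.34. All 3 surface and neck mucous cell probe sets were lower and apart, as were 20.6% of all tested probe sets. Tff2, Muc5ac and Tff1 gave -1.09 ± 0.33, -0.63 ± 0.28 and -0.23 ± 0.23, with sums of 4531.2 and 4341.8 against 5262.2 and 5406.7. Tff1 held most of these sums, and without it they were 311.5 and 247.7 against 387.2 and 496.5. Smooth muscle markers were also mostly lower, 5 of 6, with sums of 1348.7 and 1284.3 against 2695.4 and 2234.8. Actg2 held most of these sums, and without it they were 500 and 418.5 against 909.4 and 797.4.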

How the data were processed

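Per the labels, total RNA of gastric mucosa from 4 Mastomys natalensis samples was read on Affymetrix mouse U74 arrays. The authors deposited 1 linear intensity for each of 12488 probe sets and sample. Neither label nor header names the summarising software or any scaling step. Averaged after trimming 2% at each end, the 4 columns lay within 4.76% of their common mean, so the deposited scale was kept. Per the labels' descriptions the samples fall into 2 groups of 2.

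Symbols were those of mouse genes in the platform annotation, some of them possibly outdated. Leaving out 66 controls, 10833 of 12422 probe sets had 1 symbol, and the 396 with several and 1193 with none were not named. Members were matched by symbol.

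Intensities under the floor (12.15, the median over arrays of each array's 40th percentile) were set to it and log2 was taken. The 7883 probe sets above it on at least 2 arrays were fitted with limma 3.58.1 (lmFit and eBayes, R 4.3.3), 2-sided, with Benjamini-Hochberg adjustment over all of them and a threshold of 0.05. The smallest 2-sided p of an exact permutation test at this size is 0.333. A group wholly under the floor makes the estimated fold a lower bound ("at least") with regard to the floor only. Its SE still applies, and none of these folds passed the adjusted threshold. Genes were named where the unadjusted p was under 0.05 or among the 3 smallest of their role. Others belonged to a set of well-known cytokines. Their other tested probe sets are given as well. Untested probe sets of Il6st (94345_at), Csf2rb2 (161544_r_at) and Tnfaip1 (93215_at) lay under the floor on all 4 arrays. Those of Lifr (103697_at) and Cxcl1 (95349_g_at) exceeded it on 1. The members, lists and alternatives were chosen with earlier results of these data known. The fit was tested on simulated data with planted changes of 2 and 4 on the log2 scale. There the detection filter was off and the floor lay at the lowest readings. That test does not cover smaller differences or readings near the floor. The number of arrays limits the precision.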

Additional observations from a re-analysis of the deposited data

How the results depend on the processing

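With 15 alternatives, no member passed limma's adjusted threshold under any of them. The 18 members with an unadjusted p under 0.05 kept their direction wherever they were tested. Over all probe sets 22 passed when dim probe sets were not filtered, where many probe sets sit at the floor in every sample and have no spread, and the members' median was then 0. The members' median was 0.089 on a common median, 0.721 on the hybridisation controls and between 0.081 and 0.419 with a sample left out. The count of members with an unadjusted p under 0.05 was 36 on the hybridisation controls, 10 with the floor at the 50th percentile, 10 among probe sets above the floor on all 4 arrays and between 6 (without 8-week sample 1) and 16 with a sample left out. Fewer probe sets were tested under the last pair of filters (68 and 53 members). With the replicate block, the sample number as a covariate, the count was 12. The numbers pair no animals in the labels, and the correlation of the deviations of same-numbered samples was -0.0504 over 7883 probe sets and 0.135 over the 83 tested members.

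Among single probe sets the sign of some differences turned, and the cause was not tested. Scaling to the hybridisation controls moved the median of all tested probe sets from 0.086 to 0.535. After quantile normalization Cxcr2 was -0.005, Il17ra (99992_at) -0.001, Ltb4r1 -0.162 and Tnfaip1 -0.015. On a common median Il17ra was -0.142 and Ltb4r1 -0.149. On the hybridisation controls Cxcr3 was 0.137, Csf1r (161832_r_at) 0.344, Lifr (97006_s_at) 0.179, Csf1 0.456, Ifna4 (101790_f_at) 0.094, Il6st 0.234 and Tnfaip2 0.456. Cxcl5 was 0.069 with the floor at the 20th percentile and 0.098 with log2(intensity + 16).

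With a sample left out, these differences crossed 0. CC chemokines ranged from -0.141 to 0.094 (Ccl1, 94165_at), -0.019 to 0.823 (Ccl22) and -1.062 to 0.137 (Ccl25). CXC and CX3C chemokines ranged from -0.922 to 2.014 (Cx3cl1, 161752_r_at), -0.015 to 0.921 (Cxcl1) and -0.092 to 0.081 (Cxcl5). Chemokine receptors ranged from -1.267 to 0.003 (Ccr6), -0.003 to 1.009 (Ccr9) and -0.089 to 0.55 (Cxcr2). Other receptors ranged from -0.336 to 0.222 (Lifr, 97006_s_at), -0.023 to 0.185 (Il17ra, 99992_at), -0.869 to 0.282 (Il6st) and -0.128 to 0.276 (Ltb4r1). Ligands and induced proteins ranged from -0.3 to 0.158 (Csf1), -0.566 to 0.323 (Ifna4, 101790_f_at), -1.4 to 0.062 (Ltb), -0.032 to 0.233 (Tnfaip1) and -0.253 to 0.111 (Tnfaip2). Readings near the floor limit the differences of dim probe sets.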

Other observations

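Some ligands and their receptors are set side by side here, picked after their values were seen. Eosinophil-related members did not share a direction: Ccl11 differed by -0.82 ± 0.25, its receptor Ccr3 by 0.44 ± 0.34 and the eosinophil growth factor Il5 by 0.98 ± 0.29, while the Il5 receptor Il5ra read 7.6 and 0.9 at 16 weeks against 0.4 and 0.4 after 8 weeks and was unmeasured. For the granulocyte pair Csf3 and Csf3r the differences were 0.48 ± 0.26 and 0.56 ± 0.35. For the fractalkine pair they were 0.34 ± 0.27 (Cx3cl1, 98008_at) and 0.04 ± 0.27 (Cx3cr1), and for the CD30 pair 0.49 ± 0.30 (Tnfsf8) and 0.01 ± 0.68 (Tnfrsf8). Other pairs differed in sign or had a probe set that did, with -0.46 ± 0.45 for Ccl25 and 0.50 ± 0.39 for Ccr9, and with -0.07 ± 0.27 for Csf1 and 0.93 ± 0.24 and -0.18 ± 0.25 for Csf1r. Cxcl1 and Cxcl5 gave 0.45 ± 0.45 and -0.005 ± 0.24 beside 0.23 ± 0.36 for Cxcr2, and Ltb gave -0.67 ± 0.51 beside -0.32 ± 0.31 for Ltbr. None of these pairs was tested as a pair.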
